A study of Mus musculus with 16 samples.

Results

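To describe how genes tied to the denervation response of muscle behaved in Bin1mck-/- mice given an antisense oligonucleotide against Dnm2, 7 genes were read from an RNA sequencing count table of the tibialis anterior, a muscle of the lower leg. The genes were Ncam1, Runx1, Hdac4, Hdac9, Dach2, Scn4a and Kcnn3. They were chosen by symbol, with earlier results of these data known. They made up 7 of the 29730 genes in the table, and all 7 were among the 14960 genes with enough reads to be tested. The labels give 16 samples from male C57BL/6N mice aged 7 weeks, 4 in each of 4 groups. WT_PBS were wild-type mice given saline, WT_ASO were wild-type mice given the oligonucleotide ASO1, KO_PBS were Bin1mck-/- mice given saline and KO_ASO were Bin1mck-/- mice given ASO1. ASO1 is an antisense oligonucleotide, a synthetic nucleic acid made to bind a chosen RNA and deplete it, and the title of the series calls the knockout a recessive centronuclear myopathy model. No group was denervated. The sources used here do not give the dose, the schedule, the cells in which the Bin1 deletion acts or the deleted part of Bin1.

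Skeletal muscle fibres restrain a set of genes as long as nerve activity keeps them excited, and cutting the nerve releases it. In denervated muscle the class IIa histone deacetylase Hdac4 accumulates and lowers the corepressor Dach2, which frees the myogenic factor Myog to raise genes of the acetylcholine receptor. Ncam1, an adhesion molecule that innervated fibres keep mostly at the synapse, spreads over the denervated fibre, the transcription factor Runx1 is induced, and the fibre, whose adult sodium channel is Scn4a, gains small-conductance calcium-activated potassium (SK) channels.

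RefSeq promoter windows on GRCm38.p6 were found for 6 of the 7 genes, all but Ncam1, 9 windows in all. Those of Runx1, Hdac4 and Kcnn3 are shown because these genes rose in KO_PBS. Each window is the 250 bases just before an annotated transcript start, printed 5′ to 3′ on the strand of the gene. Capitals mark E boxes, CANNTG, the letters that factors such as Myog bind. Runx1 has 2 starts, at chr16:92826075-92826324 for the upstream window and chr16:92697330-92697579 for the downstream window, both on the minus strand. The Hdac4 window is chr1:92180342-92180591 on the minus strand and the Kcnn3 window is chr3:89519914-89520163 on the plus strand.
Runx1 upstream window: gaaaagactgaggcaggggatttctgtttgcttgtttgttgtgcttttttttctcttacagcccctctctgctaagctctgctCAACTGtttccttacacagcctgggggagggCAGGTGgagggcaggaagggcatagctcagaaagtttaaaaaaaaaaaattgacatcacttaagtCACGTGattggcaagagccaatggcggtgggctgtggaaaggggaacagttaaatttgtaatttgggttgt
Runx1 downstream window: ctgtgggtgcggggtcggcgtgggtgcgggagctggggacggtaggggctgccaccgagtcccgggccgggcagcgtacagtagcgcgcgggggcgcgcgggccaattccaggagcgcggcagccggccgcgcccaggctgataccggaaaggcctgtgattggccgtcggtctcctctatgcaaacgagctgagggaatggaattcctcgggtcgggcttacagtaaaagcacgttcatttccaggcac
Hdac4 window: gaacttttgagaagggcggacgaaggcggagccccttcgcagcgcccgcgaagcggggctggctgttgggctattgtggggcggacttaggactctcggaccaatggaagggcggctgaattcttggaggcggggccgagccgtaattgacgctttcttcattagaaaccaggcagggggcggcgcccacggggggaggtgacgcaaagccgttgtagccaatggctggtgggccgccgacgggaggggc
Kcnn3 window: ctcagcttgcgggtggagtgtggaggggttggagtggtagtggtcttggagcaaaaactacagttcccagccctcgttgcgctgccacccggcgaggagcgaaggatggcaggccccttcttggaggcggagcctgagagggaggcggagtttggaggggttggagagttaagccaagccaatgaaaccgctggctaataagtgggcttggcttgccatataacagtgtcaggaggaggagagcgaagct
The upstream Runx1 window held 3 E boxes, which lie 167, 136 and 71 bases before the start, and the other 3 windows held none. Among 32817 RefSeq windows of the same length 66.2% held an E box, so neither its presence nor its absence sets these genes apart. The pattern CANNTG, though not each E box, reads the same on both strands. The Runx-type letters TGTGGT, searched on both strands, were in 14.0% of all windows and, of the members, in 1 window of Dach2, 60 bases before the start. The MEF2 motif was in 2.92% of all windows and in none of the members' windows. These are letter matches in a short window and say nothing of binding.

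Total counts ran from 27591900 to 40862854 per sample, and Pearson correlations of log2 CPM, read counts scaled to a common library size, within a group ran from 0.974 to 0.988. The targeted genes matched the labels. Bin1 averaged 494.7 CPM in WT_PBS, 539 in WT_ASO, 44.9 in KO_PBS and 35.5 in KO_ASO, and Dnm2 averaged 56.1, 25.6, 62.8 and 24.8 CPM in the same order. Both genes overlap an antisense gene with reads, and the strand setting of the counting is not given. Summed markers of the muscle fibre lay between 118581 and 202431 CPM in all samples, so the samples were skeletal muscle. These markers do not tell which muscle it was. No member overlapped another gene with a mean of at least 10 counts on either strand. All values below are CPM after trimmed mean of M values (TMM) scaling of the libraries, and a log2 fold change (log2FC) is given with its standard error (SE). A gene was called at an edgeR adjusted P value under 0.05 over the 14960 genes. In whole muscle, fewer cells of a type and less RNA per cell cannot be told apart.

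**Figure D1:**
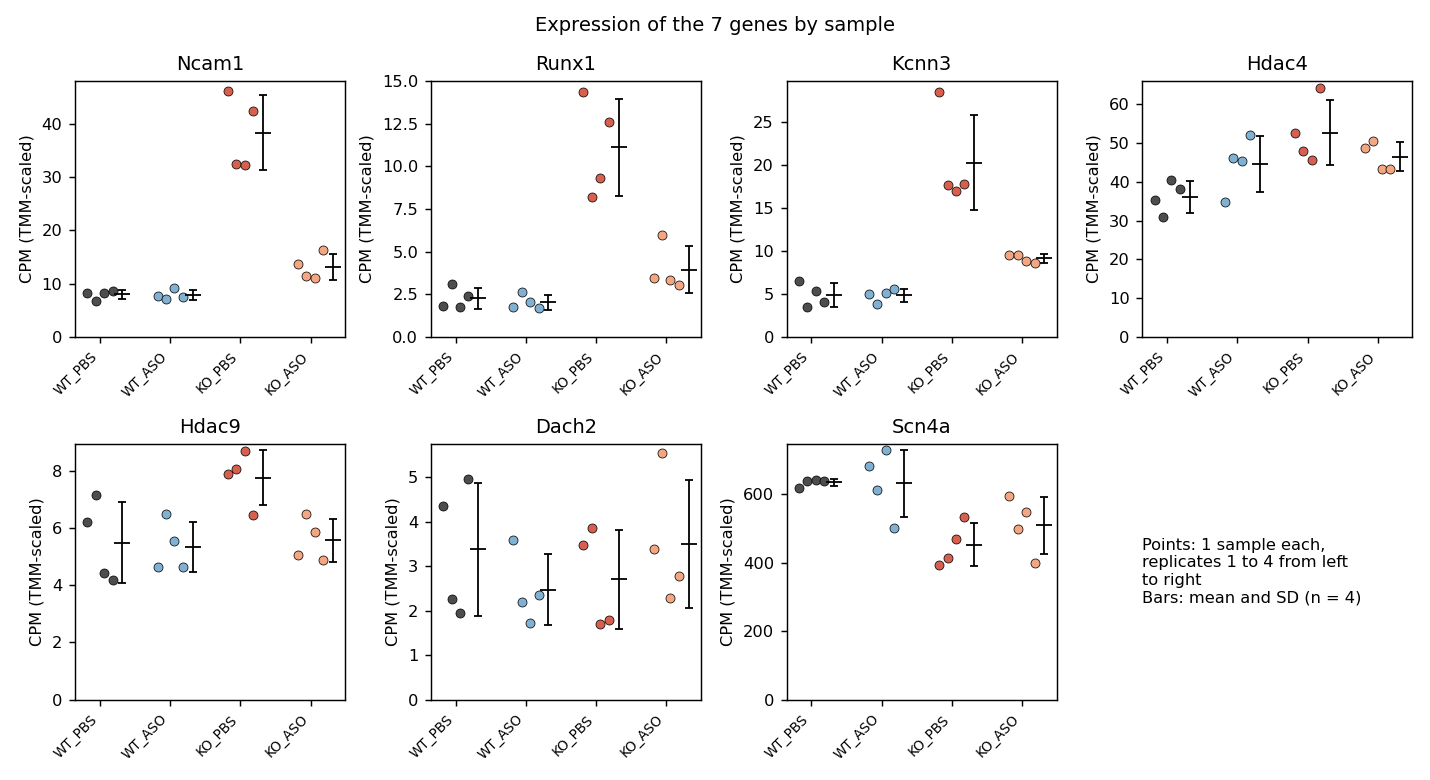
CPM of the 7 genes (y axes, linear and starting at 0) in each of the 4 groups (x axis), with 1 point per sample and bars for the mean and SD of 4 samples. The KO_PBS points of Ncam1, Runx1 and Kcnn3 lie above all other points, those of Scn4a lie below all WT_PBS points, and the groups of Dach2 overlap.

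Ncam1 rose in KO_PBS and fell with the oligonucleotide in the knockout, and it had the smallest P values of the 7 genes in both comparisons. Ncam1 (ENSMUSG00000039542, chr9:49502136-49798925, minus strand, GRCm38, protein coding) measured 8.28, 6.82, 8.27 and 8.63 CPM in WT_PBS and 7.72, 7.18, 9.26 and 7.45 CPM in WT_ASO. It measured 46.0, 32.5, 32.2 and 42.4 CPM in KO_PBS and 13.7, 11.5, 11.1 and 16.3 CPM in KO_ASO. The KO_PBS samples lay above all others, the KO_ASO samples lay between them and the wild-type samples, and the wild-type groups overlapped. KO_PBS was 4.77-fold above WT_PBS (log2FC 2.26, SE 0.15, adjusted P = 1.03e-07), the 5th smallest P of all genes tested. KO_ASO fell to 34.3% of the KO_PBS mean (log2FC -1.54, SE 0.14, adjusted P = 3.15e-05), the 3rd smallest P. In wild-type mice the oligonucleotide gave a log2FC of -0.02 with a 95% interval from -0.33 to 0.29. The effect of the oligonucleotide differed between the genotypes by -1.52 on the log2 scale (SE 0.20, adjusted P = 0.00348), and Ncam1 was the one member for which this difference was called. Both knockout comparisons share the KO_PBS samples. KO_ASO was 1.64-fold the WT_PBS mean without overlap, which was not called (log2FC 0.71, SE 0.15, adjusted P = 0.115).

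Runx1 also rose in KO_PBS and fell in KO_ASO. Runx1 (ENSMUSG00000022952, chr16:92601466-92826149, minus strand) measured 1.81, 3.09, 1.74 and 2.41 CPM in WT_PBS, and its WT_ASO values were 1.73, 2.60, 2.06 and 1.70 CPM. In KO_PBS it measured 14.4, 8.19, 9.31 and 12.6 CPM, and in KO_ASO 3.45, 5.98, 3.32 and 3.03 CPM. The KO_PBS samples lay above every other sample, and the lowest KO_ASO sample lay just below the highest WT_PBS sample. The gene was 4.94-fold higher in KO_PBS than in WT_PBS (log2FC 2.30, SE 0.25, adjusted P = 2.59e-05). KO_ASO stood at 35.5% of the KO_PBS mean (log2FC -1.49, SE 0.24, adjusted P = 0.0032). The wild-type difference was -0.15 on the log2 scale (95% interval -0.70 to 0.40). The difference of oligonucleotide effects between genotypes was -1.34 (SE 0.36, adjusted P = 0.105), and it passed the threshold with DESeq2 and without KO_ASO replicate 2, the highest sample of its group. Counts of Runx1 were low, between 53 and 521 reads per sample. Its relatives were lower still. Runx2 averaged 1.01 CPM in WT_PBS and 0.688 CPM in KO_PBS and was not called (log2FC -0.56, SE 0.32, adjusted P = 0.289), and Runx3 had at most 8 reads in a sample and was not tested.

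Of the class IIa histone deacetylases, which shuttle between nucleus and cytoplasm and hold back Mef2-dependent genes, Hdac4 rose in KO_PBS. Hdac4 (ENSMUSG00000026313, chr1:91928779-92195699, minus strand) measured 35.2, 30.9, 40.5 and 38 CPM in WT_PBS and 52.7, 48.1, 45.5 and 64.3 CPM in KO_PBS. These groups did not overlap, and the log2FC was 0.54 (SE 0.13, adjusted P = 0.0107). In WT_ASO it measured 34.9, 46.1, 45.5 and 52.1 CPM, and in KO_ASO 48.8, 50.5, 43.2 and 43.3 CPM. KO_ASO overlapped KO_PBS, and the difference of -0.18 was not called (95% interval -0.45 to 0.09, adjusted P = 0.508). In the wild type the oligonucleotide gave 0.30 (95% interval 0.03 to 0.57, adjusted P = 0.745), an unadjusted P of 0.0293. The KO_ASO mean was 88.2% of the KO_PBS mean.

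Hdac9 differed by a similar amount in KO_PBS, and the difference was not called. Hdac9 (ENSMUSG00000004698, chr12:34047580-34917095, minus strand) measured 6.20, 7.15, 4.41 and 4.19 CPM in WT_PBS, and 4.65, 6.48, 5.56 and 4.64 CPM in WT_ASO. The KO_PBS values were 7.89, 8.05, 8.68 and 6.44 CPM, and the KO_ASO values were 5.05, 6.49, 5.85 and 4.88 CPM. KO_PBS replicate 4 lay inside the WT_PBS range. The log2FC of KO_PBS against WT_PBS was 0.51 (SE 0.17, adjusted P = 0.0662), and that of KO_ASO against KO_PBS was -0.48 (SE 0.17, adjusted P = 0.144). The first crossed the threshold with DESeq2, limma-voom, scaling by library totals, or without WT_PBS replicate 2 or KO_PBS replicate 4. The other 2 enzymes of the class were more abundant and were not called: the log2FC of Hdac5 in KO_PBS against WT_PBS was -0.17 (SE 0.09, adjusted P = 0.242), and that of Hdac7 was 0.07 (SE 0.13, adjusted P = 0.786), which turned negative without WT_PBS replicate 2.

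Dach2, the corepressor that stands between Hdac4 and Myog in the denervation pathway, was not called in any comparison. Dach2 (ENSMUSG00000025592, chrX:113297510-113836386, plus strand) measured 4.36, 2.27, 1.95 and 4.96 CPM in WT_PBS, and 3.60, 2.2, 1.73 and 2.36 CPM in WT_ASO. In KO_PBS the values were 3.47, 3.85, 1.71 and 1.80 CPM, and in KO_ASO 3.39, 5.56, 2.28 and 2.79 CPM. All 4 groups overlapped, and within each group the samples spread with a coefficient of variation between 32.3% and 44.3%. The log2FC of KO_PBS against WT_PBS was -0.33 with a 95% interval from -1.11 to 0.44. The interval held 0 and reached further toward a loss than toward a gain, so a moderate loss could have been missed at this spread. Its relative Dach1 gave -0.41 (SE 0.21, adjusted P = 0.222). Myog, in contrast, measured 3.22, 4.25, 3.22 and 2.51 CPM in WT_PBS and 28.9, 22.0, 21.1 and 13.4 CPM in KO_PBS, a called log2FC of 2.70 (SE 0.32, adjusted P = 6.9e-05). In KO_ASO Myog measured 8.58, 17.2, 7.23 and 17.4 CPM, which overlapped KO_PBS (log2FC -0.76, SE 0.29, adjusted P = 0.174) and stayed above WT_PBS (log2FC 1.94, SE 0.31, adjusted P = 0.0418), a call that was lost in 10 of 15 alternatives.

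Scn4a, the adult sodium channel of muscle, was the one member that fell in KO_PBS. Scn4a (ENSMUSG00000001027, chr11:106318592-106353288, minus strand) measured 619.8, 639, 643 and 637 CPM in WT_PBS and 394, 413, 469 and 533 CPM in KO_PBS. The WT_PBS samples were close together, with a coefficient of variation of 1.61%, and every KO_PBS sample lay below them. KO_PBS stood at 71.2% of the WT_PBS mean (log2FC -0.49, SE 0.13, adjusted P = 0.0239). The call was lost when libraries were scaled by their totals alone and without WT_PBS replicate 2 or 4 or KO_PBS replicate 1 or 2, where the adjusted P reached 0.0892. WT_ASO measured 682, 614, 729.8 and 503 CPM and KO_ASO 594, 499, 547 and 398 CPM. KO_ASO overlapped KO_PBS (log2FC 0.17, 95% interval -0.11 to 0.45) and lay below all WT_PBS samples without a call (log2FC -0.32, SE 0.13, adjusted P = 0.556).

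Kcnn3, which encodes an SK channel, rose in KO_PBS and fell in KO_ASO. Kcnn3 (ENSMUSG00000000794, chr3:89520164-89675132, plus strand) measured 6.55, 3.43, 5.32 and 4.04 CPM in WT_PBS, and 4.97, 3.79, 5.07 and 5.61 CPM in WT_ASO. In KO_PBS it measured 28.5, 17.7, 17.0 and 17.8 CPM, and in KO_ASO 9.59, 9.59, 8.86 and 8.57 CPM. The KO_ASO samples were close together and lay between the wild-type and the KO_PBS samples without overlap with either. KO_PBS was 4.18-fold above WT_PBS (log2FC 2.06, SE 0.20, adjusted P = 1.15e-05). KO_ASO stood at 45.2% of KO_PBS (log2FC -1.15, SE 0.19, adjusted P = 0.00379), and without KO_PBS replicate 1, the highest sample, the log2FC was -0.94 (adjusted P = 0.0123). Against WT_PBS the KO_ASO level was 1.89-fold (log2FC 0.92, SE 0.20, adjusted P = 0.135). The wild-type difference was 0.01 (95% interval -0.42 to 0.43), and the difference of effects between genotypes was -1.15 (SE 0.28, adjusted P = 0.071), which passed the threshold with DESeq2 or without WT_PBS replicate 1.

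Another SK channel, Kcnn2, went in the opposite direction to Kcnn3. Kcnn2 measured 3.39, 3.09, 3.92 and 3.64 CPM in WT_PBS and 1.49, 1.93, 1.90 and 1.45 CPM in KO_PBS. The groups did not overlap (log2FC -1.05, SE 0.17, adjusted P = 0.00084). KO_ASO measured 2.88, 2.62, 2.94 and 4.39 CPM, above all KO_PBS samples (log2FC 0.92, SE 0.17, adjusted P = 0.00737). The oligonucleotide effect on Kcnn2 differed between genotypes by 1.22 (SE 0.24, adjusted P = 0.0327), a call lost in 9 of 22 alternatives, each of which left out 1 sample. Kcnn1 and Kcnn4 were not called in KO_PBS against WT_PBS, with a log2FC of -0.10 (SE 0.12, adjusted P = 0.641) and 0.61 (SE 0.31, adjusted P = 0.222). The Kcnn1 value turned positive with scaling by library totals and without WT_PBS replicate 3. Kcnn1 was the most abundant SK gene per kilobase in every group, with 4.71 CPM per kb in KO_PBS where Kcnn3 had 1.94 CPM per kb.

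**Figure D2:**
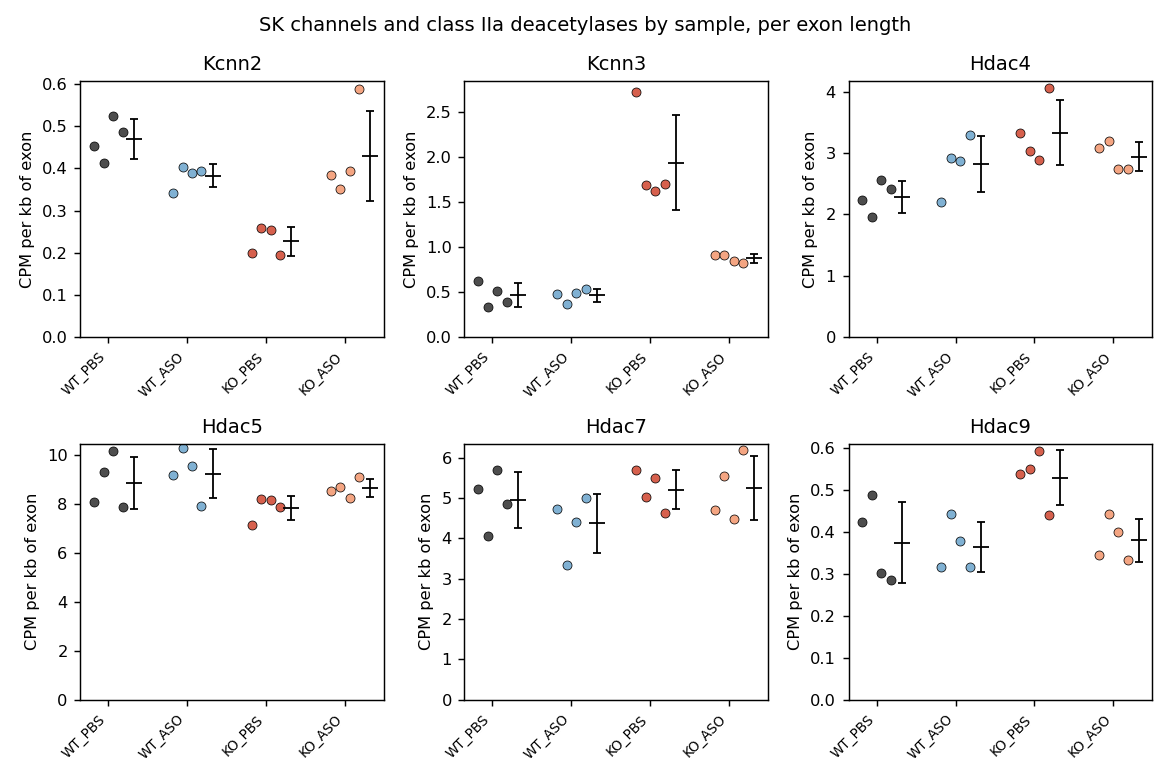
CPM per kilobase of summed exon length (y axes, linear, starting at 0) of 2 SK channels and the 4 class IIa deacetylases by group, with 1 point per sample and bars for mean and SD (n = 4). Kcnn2 is lowest and Kcnn3 is highest in KO_PBS, at 0.227 and 1.94 CPM per kb, and Hdac5 and Hdac7 overlap between KO_PBS and WT_PBS.

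Across the 7 genes, 5 were called between KO_PBS and WT_PBS, 4 of them higher, where 12.6% of all genes tested were called, 7.43% were called higher and 5.12% were called lower. Because the 7 genes were chosen with earlier results of these data known, such shares describe the list and do not test it. The same 5 genes had groups that did not overlap, against 20.4% of all genes tested. The median log2FC of the members was 0.54, and that of all genes was -0.01. Between KO_ASO and KO_PBS 3 members were called, all lower, where 3.64% of all genes were called and 2.83% were called lower. These were Ncam1, Runx1 and Kcnn3, which were also the 3 members whose KO_ASO and KO_PBS samples did not overlap, against 10.4% of all genes. The median log2FC was -0.48 for the members and 0.01 for all genes. With 4 samples against 4, the smallest two-sided P of an exact permutation test is 0.0286, and Benjamini-Hochberg adjustment over the 35 tests of members raised it to 0.0667, so no member passed the threshold by that test.

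Between WT_ASO and WT_PBS edgeR called 0 members, where 0.00668% of all genes were called. At an unadjusted P under 0.05 there was 1 member, Hdac4, and 6.45% of all genes. DESeq2, which called 0.234% of all genes to which it gave an adjusted P, and limma-voom also called 0 members. Between KO_ASO and WT_PBS 0 members were called, where 0.0401% of all genes were called, and 5 members had an unadjusted P under 0.05 against 8.22% of all genes. The groups of Ncam1, Hdac4, Kcnn3 and Scn4a did not overlap, 4 of 7 against 5.39% of all genes. DESeq2 called 2 of the members, where it called 0.636% of all genes, and limma-voom called 0. Between KO_ASO and WT_ASO 0 members were called, where 0.0735% of all genes were called, and 4 had an unadjusted P under 0.05 against 15.1% of all genes. DESeq2 called 3 of the members there, where it called 3.4% of all genes, and limma-voom called 0. In that comparison the log2FC was 0.73 (SE 0.15, adjusted P = 0.0745) for Ncam1, 0.96 (SE 0.26, adjusted P = 0.121) for Runx1 and 0.91 (SE 0.20, adjusted P = 0.0796) for Kcnn3, without overlap for any of the 3, against 6.97% of all genes without overlap. The difference of oligonucleotide effects between genotypes was called for 1 of 7 members, Ncam1, where 0.575% of all genes were called. At an unadjusted P under 0.05 there were 4 members, Ncam1, Runx1, Hdac4 and Kcnn3, against 12.7% of all genes. DESeq2 called 3 members and 2.53% of all genes in that test, and limma-voom called 1 member and 0.374%.

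**Figure D3:**
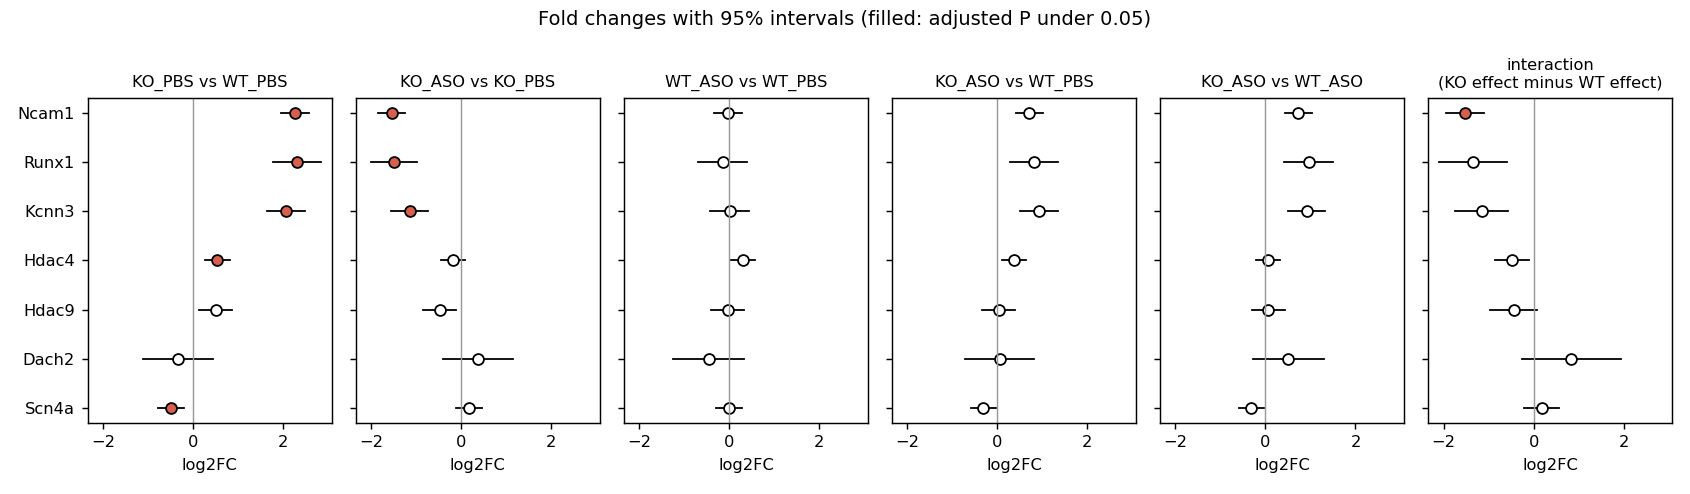
log2FC (x axes) of the 7 genes in 5 comparisons and in the difference of oligonucleotide effects between genotypes, with 95% intervals as lines and filled points for adjusted P under 0.05. Ncam1, Runx1 and Kcnn3 are filled on the right in the KO_PBS comparison and on the left in the KO_ASO against KO_PBS comparison, and no point is filled in wild-type mice.

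Per kilobase of exon, Scn4a was the most abundant member in every group, from 64.2 ± 8.93 CPM per kb in KO_PBS to 90.1 ± 1.45 CPM per kb in WT_PBS (SD, n = 4). In WT_PBS it was followed by Hdac4 at 2.29 ± 0.261, Ncam1 at 0.923 ± 0.093, Kcnn3 at 0.462 ± 0.133, Hdac9 at 0.374 ± 0.097, Dach2 at 0.343 ± 0.152 and Runx1 at 0.188 ± 0.052 CPM per kb (SD, n = 4). The levels of Kcnn3, Hdac9 and Dach2 differed by less than their spread. In KO_PBS Ncam1 moved to second place at 4.42 ± 0.811 CPM per kb (SD, n = 4), with samples that overlapped those of Hdac4 at 3.33 ± 0.527 CPM per kb (SD, n = 4), and Runx1 at 0.924 ± 0.238 CPM per kb (SD, n = 4) passed Hdac9 and Dach2. In KO_ASO the order was that of the wild-type groups, with Ncam1 at 1.52 ± 0.276 CPM per kb (SD, n = 4) below Hdac4 at 2.94 ± 0.239 (SD, n = 4), and Hdac9, Dach2 and Runx1 within their spread of each other.

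Of 44 further genes of the denervation pathway, listed by role with earlier results of these data known, 42 were tested. Ncam2, with at most 4 reads in a sample, and Runx3 were not. Between KO_PBS and WT_PBS 11 were called higher and 4 lower, where 12.6% of all genes tested were called, and the median log2FC was 0.05. Most receptor genes rose, with Chrna1, Chrnb1, Chrnd, Chrng and Musk called higher and Chrne not called, 5 of 6 genes. Chrna1, the receptor subunit shared by fetal and adult muscle, went from 19.0 ± 1.59 CPM in WT_PBS to 65.4 ± 14.5 CPM in KO_PBS (SD, n = 4; log2FC 1.78, SE 0.22, adjusted P = 8.27e-05). Chrng had 5 to 61 reads per sample in these groups, and its call was lost in 8 of 15 alternatives. Of the 15 transcriptional regulators tested only Myog was called. Of the 5 calcium-dependent kinases Camk2d rose (log2FC 0.91, SE 0.14, adjusted P = 0.000677) and Camk2a fell. Of 4 sodium channel subunits Scn4b, an auxiliary subunit, fell (log2FC -0.47, SE 0.10, adjusted P = 0.00499), and the potassium and chloride channels gave Kcnn2 and Clcn1 lower among 4. Clcn1 lost its call in 4 of 15 alternatives. Of 6 effectors Gadd45a, Cdkn1a, Trim63 and Myh8 rose, with a log2FC of 0.99 (SE 0.17, adjusted P = 0.00113) for Gadd45a, a stress-inducible gene that shares exon sequence with an antisense gene. The calls of Musk and Trim63 were each lost in 2 alternatives that left out 1 sample. Neither of the polysialylating enzymes St8sia2 and St8sia4 that were tested was called.

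Between KO_ASO and KO_PBS edgeR called 4 of the 42 genes lower and 1 higher, where 3.64% of all genes were called, with a median log2FC of 0.01. DESeq2 called 9 of 42, among 1056 genes in all, and limma-voom called 5, among 551 genes in all. Chrnd, the delta subunit of the receptor, fell from 20.6 ± 10.4 to 6.17 ± 1.42 CPM (SD, n = 4; log2FC -1.74, SE 0.37, adjusted P = 0.0182). Camk2d fell from 99.9 ± 19.0 to 63.9 ± 4.51 CPM (SD, n = 4; log2FC -0.64, SE 0.14, adjusted P = 0.0199), and Myh8, the perinatal myosin, had a log2FC of -0.93 (SE 0.21, adjusted P = 0.0214). The other edgeR calls were Chrna1 and, rising, Kcnn2. Leaving out 1 sample, or other settings, removed the calls of Camk2d in 3, Chrna1 in 5, Chrnd in 4, Myh8 in 4 and Kcnn2 in 1 of 15 alternatives. Between WT_ASO and WT_PBS 0 of 42 were called by edgeR, DESeq2 or limma-voom, with 6 at an unadjusted P under 0.05, where 6.45% of all genes were. Between KO_ASO and WT_ASO edgeR and limma-voom called 0 and DESeq2 called 1, against its 3.4% of all genes, with 7 at an unadjusted P under 0.05, where 15.1% of all genes were. Between KO_ASO and WT_PBS edgeR called 1, Myog, DESeq2 called 5, against its 0.636% of all genes, and limma-voom 0, with 11 at an unadjusted P under 0.05, where 8.22% of all genes were. In the test between genotypes edgeR called 2 of 42, where 0.575% of all genes were called, and 17 had an unadjusted P under 0.05, where 12.7% of all genes did. In the same test DESeq2 called 7 of 42 and 2.53% of all genes, and limma-voom called 1 of 42 and 0.374% of all genes. The edgeR calls were Kcnn2 and Gadd45a, the latter at -1.11 (SE 0.23, adjusted P = 0.0437), which 14 of 22 alternatives did not call.

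**Figure D4:**
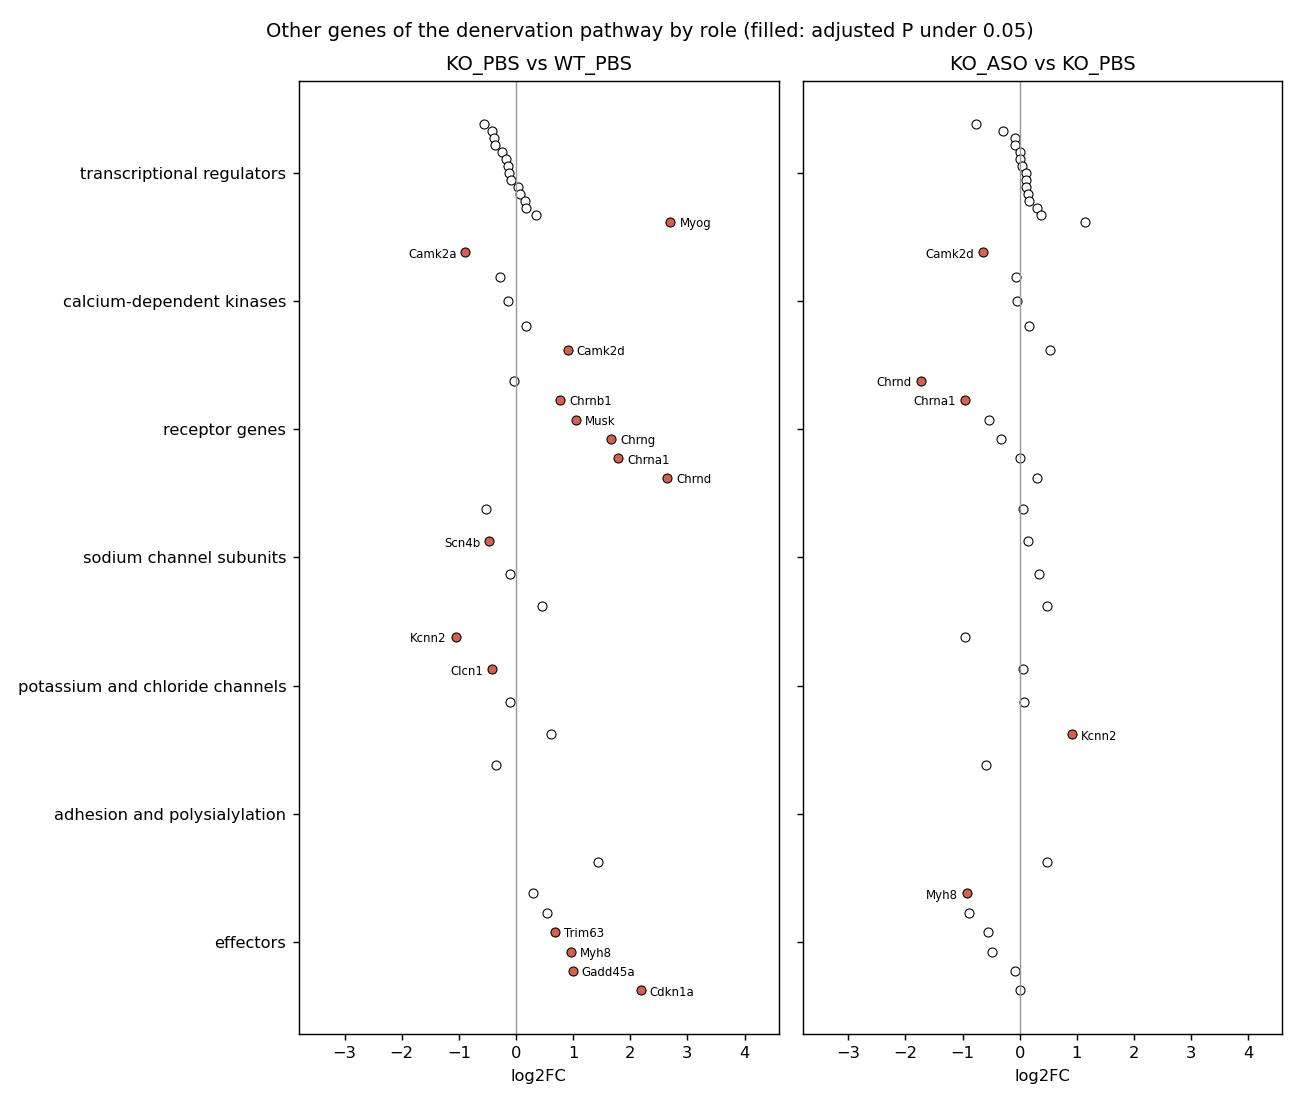
log2FC (x axes) of the 42 other pathway genes tested, in rows by role, for KO_PBS against WT_PBS and KO_ASO against KO_PBS, which share the KO_PBS samples. Filled and named points have an adjusted P under 0.05, 15 in the left panel and 5 in the right panel.

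The genes with the most similar pattern over the 16 samples were named by Pearson's r of log2 CPM, as a description over samples that share the 4 groups. For Ncam1 these were Anxa4 (r = 0.986), Ahnak2 (0.982) and Serpinb1a (0.968). Runx1 was closest to Stam2 (0.966), Psmd5 (0.962) and Prkaa1 (0.958), and Kcnn3 to Osbpl3 (0.974), Ttc9 (0.969) and Uchl1 (0.966). Scn4a was closest to Prpf8 (0.957), Huwe1 (0.954) and Clcn1 (0.950). The closest genes were less similar for Hdac9 with Ttc7 (0.883), Itgb6 (0.879) and Nectin1 (0.840), for Dach2 with Plekhg4 (0.833), Ift57 (0.83) and Oxnad1 (0.795), and for Hdac4 with Gm43011 (0.83), Msantd3 (0.821) and Cd63 (0.815). Gm43011 and Plekhg4 had few reads, with group means of 0.153 to 0.411 CPM and 0.340 to 0.669 CPM. Among the members Ncam1 had r = 0.952 with Kcnn3 and 0.925 with Runx1. Once the group means were taken out, these were 0.441 and -0.04, so the likeness lay mostly between groups.

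Markers of other cell types were read beside the members. Summed macrophage markers ran from 21.6 to 40.9 CPM in WT_PBS, 26.8 to 49.7 CPM in WT_ASO, 65.5 to 148 CPM in KO_PBS and 24.9 to 45.2 CPM in KO_ASO. Against WT_PBS all 7 macrophage markers were called higher in KO_PBS, where 7.43% of all genes were. In KO_ASO against KO_PBS edgeR called 4 of 7 lower, where 2.83% of all genes were. DESeq2 called all 7 there, among 1056 genes in all, and all 7 means were lower. The macrophage markers thus moved with Ncam1, Runx1 and Kcnn3. In the test of the difference between genotypes, in which Ncam1 was called, 2 of 7 macrophage markers were called lower, Cd68 and Cd163, and the median log2FC of the 7 was -2.05. DESeq2 called 5 of them, against its 2.53% of all genes, and all 7 had an unadjusted P under 0.05, against 12.7% of all genes. Their part in the levels of these genes was not tested. Summed Schwann cell and nerve markers ran from 33.1 to 55.1 CPM in WT_PBS, 40.2 to 105 CPM in WT_ASO, 30.6 to 59.6 CPM in KO_PBS and 27.5 to 64.3 CPM in KO_ASO, and 0 of 7 were called by edgeR, DESeq2 or limma-voom in any comparison, with at most 1 of 7 at an unadjusted P under 0.05. Fibro-adipogenic markers ran from 413 to 509.9 CPM in WT_PBS, 208 to 804 CPM in WT_ASO, 499 to 834 CPM in KO_PBS and 225 to 672 CPM in KO_ASO, with 3 of 4 called higher in KO_PBS against WT_PBS and Dcn called lower in KO_ASO against KO_PBS. In the latter comparison DESeq2 called 3 of these 4, among 1056 genes in all. Satellite cell markers summed to 24.3 to 29.6 CPM in WT_PBS, 24.5 to 37.6 CPM in WT_ASO, 22.2 to 25.4 CPM in KO_PBS and 18.4 to 28.6 CPM in KO_ASO, and 3 of 4, Pax7, Myf5 and Calcr, were called lower in KO_PBS against WT_PBS. The fourth, Cdh15, made up most of the sum, at 20.5 CPM in WT_PBS and 21.3 CPM in KO_PBS, and was not called. Summed muscle fibre markers ran from 140240 to 173368 CPM in WT_PBS and from 118581 to 127929 CPM in KO_PBS, and edgeR called 1 of 6, Tnnt3, lower. DESeq2 called 3 of 6 in that comparison, among 2522 genes in all. In KO_ASO against KO_PBS edgeR called 0 fibre markers and DESeq2 called 2, among 1056 genes in all. Of the smooth muscle and pericyte markers Myh11 was called lower in KO_PBS against WT_PBS, 1 of 3. Endothelial markers gave 0 of 4 calls by edgeR, DESeq2 or limma-voom in any comparison, with at most 1 at an unadjusted P under 0.05. Of 4 markers of other leukocytes 1 was tested, and DESeq2 alone called it, in KO_PBS against WT_PBS. None of these lists had a marker at 0 in every sample of a group.

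**Figure D5:**
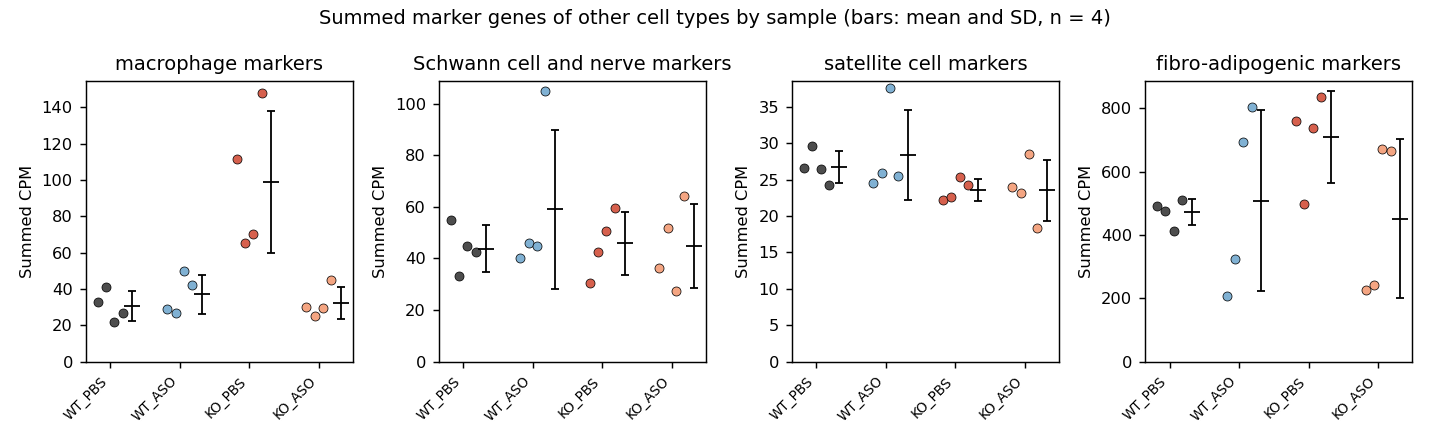
Summed CPM of marker genes (y axes, linear, starting at 0) of macrophages, Schwann cells and nerve, satellite cells and fibro-adipogenic cells in the 4 groups, with 1 point per sample and bars for mean and SD (n = 4). Macrophage markers lie at 65.5 to 148 CPM in KO_PBS, above all other samples, and the nerve markers overlap between all groups.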

How the data were processed

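The table deposited by the authors held raw, unnormalized read counts by Ensembl identifier for 16 libraries made with a stranded messenger RNA kit. HTSeq 0.6.1p1, STAR 2.5.3a, Bowtie2 2.2.8, cutadapt 1.10 and GRCm38 are listed in the submitters' processing notes, without the strand setting or annotation release. Symbols came from GENCODE, with 0 identifiers unmatched. Groups came from the labels, and each sample was taken to be a separate mouse. filterByExpr removed 14770 genes and left 14960. edgeR 4.0.16 under R 4.3.3 fitted a robust quasi-likelihood model with TMM scaling and 1 mean per group to all 16 samples, with Benjamini-Hochberg adjustment over the genes tested. SE is the log2FC divided by the square root of F. Scripts were tested on simulated data. Samples of a group differed by a mean chi-square per gene of at least 21.7, so none appeared to be a copy of another. Alternatives were RLE scaling, library totals, no filter, DESeq2 1.42.0, limma-voom 3.58.1, a replicate block, the compared groups alone and leaving out each sample. The members, gene lists and marker lists were chosen with earlier results of these data known. Genes named were the 7 members in every comparison, the called gene with the smallest P in each role, the paralogs of the members, Myog, the 3 nearest patterns, and Bin1 and Dnm2 as a check. Other called pathway genes were named after their values were seen. An item of the pathway list is not reported here.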

Additional observations from a re-analysis of the deposited data

Results flagged for a closer look

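A sample far from the rest of its group was found in 2 of the 28 groups of member values screened, where chance flags about 1 in 20. Runx1 measured 5.98 CPM in KO_ASO replicate 2, and the next KO_ASO sample measured 3.45 CPM. Without that sample the log2FC of KO_ASO against KO_PBS was -1.77 (edgeR adjusted P = 0.00129). Kcnn3 measured 28.5 CPM in KO_PBS replicate 1, and the next KO_PBS sample measured 17.8 CPM.

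The effect of the oligonucleotide on Ncam1 differed between the genotypes, by -1.52 on the log2 scale in the test of the difference itself (SE 0.20, edgeR adjusted P = 0.00348). In the same test 2 of 7 macrophage markers were called, in the same direction, and their part in the Ncam1 value was not tested.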

How the results depend on the processing

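Scaling by library totals alone moved the median log2FC of all genes to 0.14 between KO_PBS and WT_PBS and to 0.11 between KO_ASO and WT_ASO. In the first the share of calls that were higher rose from 59.2% to 88.2%. In KO_ASO against KO_PBS that share went from 22.1% to 8.29%. Leaving out 1 sample at a time gave 4 to 6 members called for KO_PBS against WT_PBS, 3 for KO_ASO against KO_PBS, 0 for WT_ASO against WT_PBS, 1 to 2 for the difference between genotypes, 0 for KO_ASO against WT_PBS and 0 to 1 for KO_ASO against WT_ASO. Over all genes the calls then ran from 997 to 1694, 208 to 831, 1 to 4, 23 to 102, 4 to 11 and 2 to 19 in the same order.

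With DESeq2 the calls over all genes were 1056 for KO_ASO against KO_PBS, 33 for WT_ASO against WT_PBS, 378 for the difference between genotypes, 95 for KO_ASO against WT_PBS and 419 for KO_ASO against WT_ASO, and the members called in the last 3 were 3, 2 and 3. The edgeR counts were 544, 1, 86, 6 and 11 genes. limma-voom called 56 genes for the difference between genotypes and 4 for KO_ASO against WT_ASO. The compared groups alone gave 300 genes for KO_ASO against KO_PBS and 2 for KO_ASO against WT_ASO. No filter gave 3 genes for WT_ASO against WT_PBS. For KO_ASO against WT_ASO no filter gave 1 member among 8 genes, library totals 1 member among 16 genes and RLE scaling 6 genes. The cause of these shifts was not tested.

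The labels do not say that a replicate number marks a shared batch or day. Correlations of deviations between samples of the same number ran from -0.0777 to 0.435 and were not all above 0.1. The main fit did not treat the samples as paired, because the labels give no such link. Even so, 14 of 16 samples correlated best with a sample of their own number. What samples of one number share was not tested, and some calls changed under a replicate block. With the replicate block 2 members, Ncam1 and Kcnn3, were called for the difference between genotypes, among 126 genes in all. The same 2 were called for KO_ASO against WT_ASO, among 44 genes, and 2 genes were called for WT_ASO against WT_PBS. Under the block Hdac9 was also called for KO_PBS against WT_PBS, among 2322 genes, and for KO_ASO against KO_PBS (adjusted P = 0.0499), among 752 genes.

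Directions reversed for differences near 0. For WT_ASO against WT_PBS, Kcnn3 gave -0.0455 with library totals and -0.0054 without a filter, and Hdac9 gave 0.0144 with limma-voom. Leaving out 1 sample there gave -0.105 to 0.023 for Ncam1, -0.30 to 0.0266 for Runx1, -0.0821 to 0.0895 for Scn4a, -0.15 to 0.11 for Hdac9 and -0.12 to 0.18 for Kcnn3. It gave -0.0849 to 0.18 for Hdac9 and -0.27 to 0.30 for Dach2 in KO_ASO against WT_PBS, -0.0434 to 0.14 for Hdac4 and -0.0175 to 0.17 for Hdac9 in KO_ASO against WT_ASO, and -0.0155 to 0.14 for Hdac7 and -0.16 to 0.0116 for Kcnn1 in KO_PBS against WT_PBS. With library totals Kcnn1 gave 0.0458 in the last. The alternatives for the genes that are not members were added after the data were seen.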
